A study of Mus musculus with 4 samples.

Results

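The chemokine system was described in epididymal fat, a visceral depot that adjoins the epididymis and testis, of C57Bl/6J mice fed a high-fat diet. Genes were chosen by symbol alone, as the chemokines of the Ccl, Cxcl, Cx3cl1 and Xcl1 classes and the receptors named Ccr, Ccrl2, Cxcr, Cx3cr1, Xcr1 and Ackr. This gave 55 genes, 33 ligands and 22 receptors, of 18194 genes on the arrays. Both diets supplied 60% of energy as fat and were given for 21 weeks from 9 weeks of age, so obesogenic feeding was common to every array. The standard high-fat diet held 0.4% calcium, and the other diet held 1.8% calcium with whey protein isolate, so that calcium and whey protein cannot be told apart. The groups held 10 mice each, and RNA of 2 animals from each group went onto Affymetrix mouse arrays. By their labels 2 arrays belong to the high-calcium whey group (replicates 1 and 2), and 1 belongs to the standard group. The diet of the last array is open: its title carries the wording of the series title, which a label of replicate 2 also carries, although with 2 animals from each group it would be the second control. It is named here as the array of open diet, and it entered no comparison between the diets.

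Chemokines are small secreted proteins that guide the migration of leukocytes along gradients. They are classed by the spacing of their first cysteines into CC, CXC, CX3C and C families, and they signal through G protein-coupled receptors that couple to inhibitory G proteins. Atypical receptors bind chemokines without that coupling and mostly remove them. In the fat of obese animals the family is best known for the CC ligands that bring monocytes into the tissue, where they become macrophages. Fat pads also hold eosinophils, T cells and small lymphoid clusters, which have their own ligands and receptors.

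The measured values were hybridization signals on a linear scale of open origin, given here as log2. The log2 median of an array, taken as background, was -3.38 on replicate 1, -3.99 on replicate 2, with -4.002 for the standard array and -4.09 for the array of open diet. Adipocyte markers were well above it, with 6 of 6 measured markers, among them Lep and Fabp4, above background on all arrays. Differences between the diets were tested with limma over all 18194 genes, two-sided, with Benjamini-Hochberg adjustment at 0.05. Only the 2 high-calcium arrays contributed to the spread, which was taken to hold for the standard array too. A permutation of 3 labelled arrays cannot give an exact p below 0.333. Labels speak of separate mice, but with this number of arrays a diet and the one mouse that stands for the standard diet cannot be told apart. In bulk tissue, fewer cells of a type and less RNA per cell cannot be told apart either.

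Of the 55 genes, 29 were above background on all 4 arrays, 14 on some of them and 12 on none. Of all 18194 genes, 10463 were above background on all 4 arrays and 4589 on none. The 29 were 19 ligands and 10 receptors. No chemokine or receptor passed limma's adjusted threshold (0 of 55, against 0% of all genes), and the smallest adjusted p was 0.978, for Ccl28. At an unadjusted p under 0.05 there were 2 of the 55, Ccl28 and Ccl24, against 4.94% of all genes. Both were among the 29 genes, against 0.179% of all genes above background on the 3 labelled arrays. When limma's variances were fitted robustly along a trend with signal, 0 of the 55 were called, against 0.033% of all genes; Ccl2 then had the smallest adjusted p, 0.594, its largest over the alternatives being 1.

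By direction alone, 11 of the 29 measured genes were higher on both high-calcium arrays than on the standard array, against 35.5% of all genes above background, and 7 were lower on both, against 26.8%. These shares lie near the background. The 11 higher genes were Ackr2, Ackr3, Ccl2, Ccl24, Ccl25, Ccl27a, Ccl4, Ccl7, Cxcl1, Cxcl14 and Cxcr4. The 7 lower genes were Ackr4, Ccl28, Ccl8, Cxcl10, Cxcl12, Cxcl13 and Cxcl9. Only Ccl2 and Ccl24 were at least 1.5-fold higher on both arrays (2.21% of all genes above background), and only Ccl28, Ccl8 and Ackr4 at least 1.5-fold lower (1.1%). Centring each array on its median, which moved the median difference of all genes from 0.08 to -0.24, gave 4 higher (8.37% of genes) and 12 lower genes (46.5%). Quantile normalization gave 9 higher (31.8%) and 7 lower genes (30.2%). The 4 genes higher under each of the 4 scalings tried were Ccl2, Ccl24, Ccl25 and Ccl27a, and the 6 lower were Ackr4, Ccl28, Ccl8, Cxcl10, Cxcl12 and Cxcl9.

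**Figure D1:**
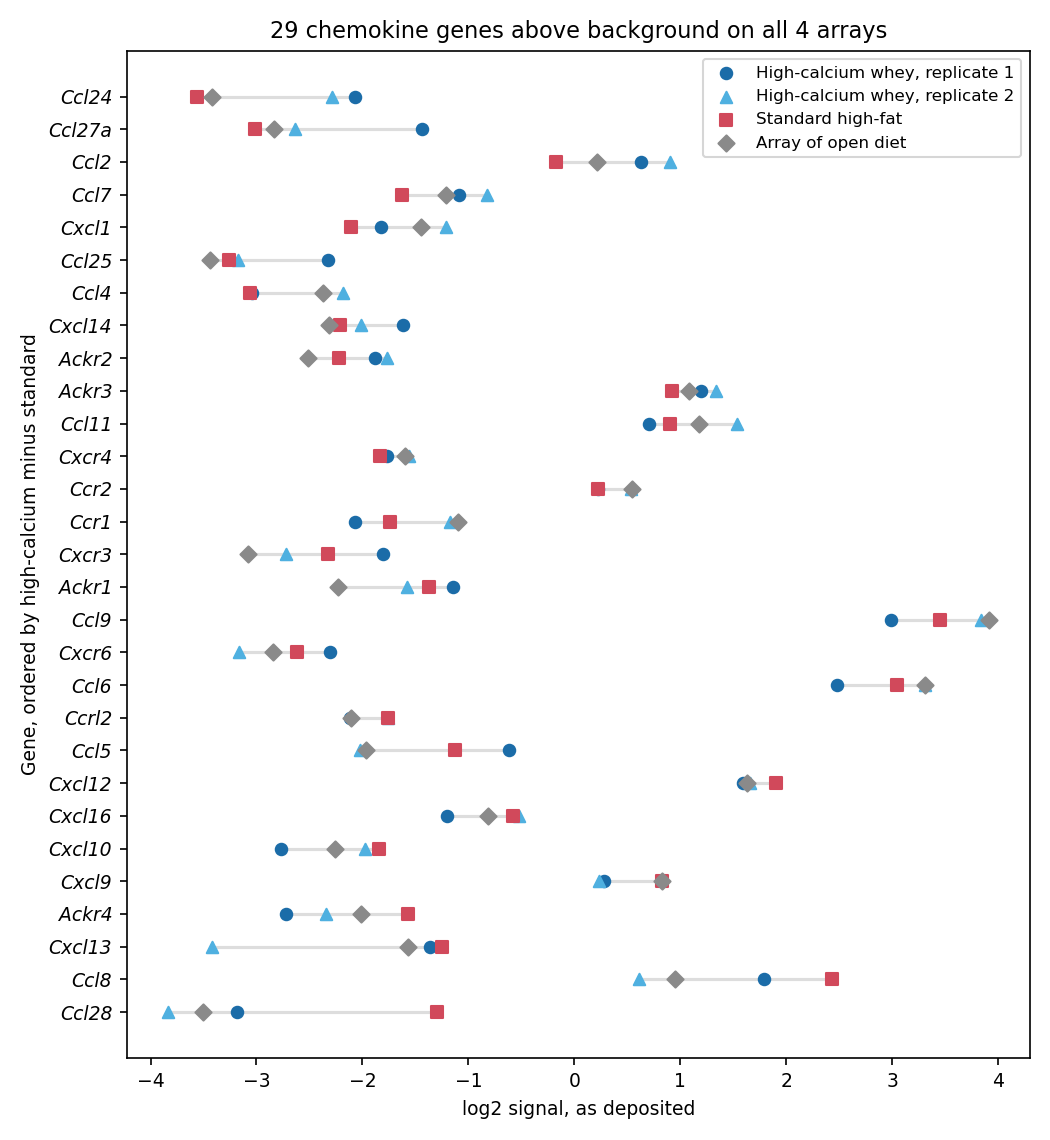
Log2 signal (x axis, as deposited) of the 29 chemokine and receptor genes above background on all 4 arrays (y axis, ordered by the mean high-calcium value minus the standard value). Each symbol is 1 array; signals may be compared within a gene only, and for Ccl28 the standard array stands at -1.29, apart from the other 3 arrays at -3.19 to -3.84.

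Many chemokine genes had unlike signals in the pair of high-calcium mice. Replicates 1 and 2 were at least 1.5-fold apart for 16 of the 29 genes, against 19.4% of all genes above background. The median gap between the replicates was 0.65 for the 29 genes and 0.25 for all genes above background. In 18 of the 29 the gap between the replicates was larger than the difference between the diets, a share near the 60.6% of all genes above background. The other 11 genes were Ackr2, Ackr3, Ackr4, Ccl2, Ccl24, Ccl28, Ccl7, Ccl8, Cxcl12, Cxcl14 and Cxcl9. The median difference between the diets was 0.06 over the 29 genes and 0.03 over all genes above background. Replicate 1 also stood apart in smooth muscle markers, whose summed linear signal was 60.6 on it, against 8.81 on replicate 2, with 9.99 for the standard array and 7.13 for the array of open diet; their part in the gaps between the replicates was not tested.

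**Figure D2:**
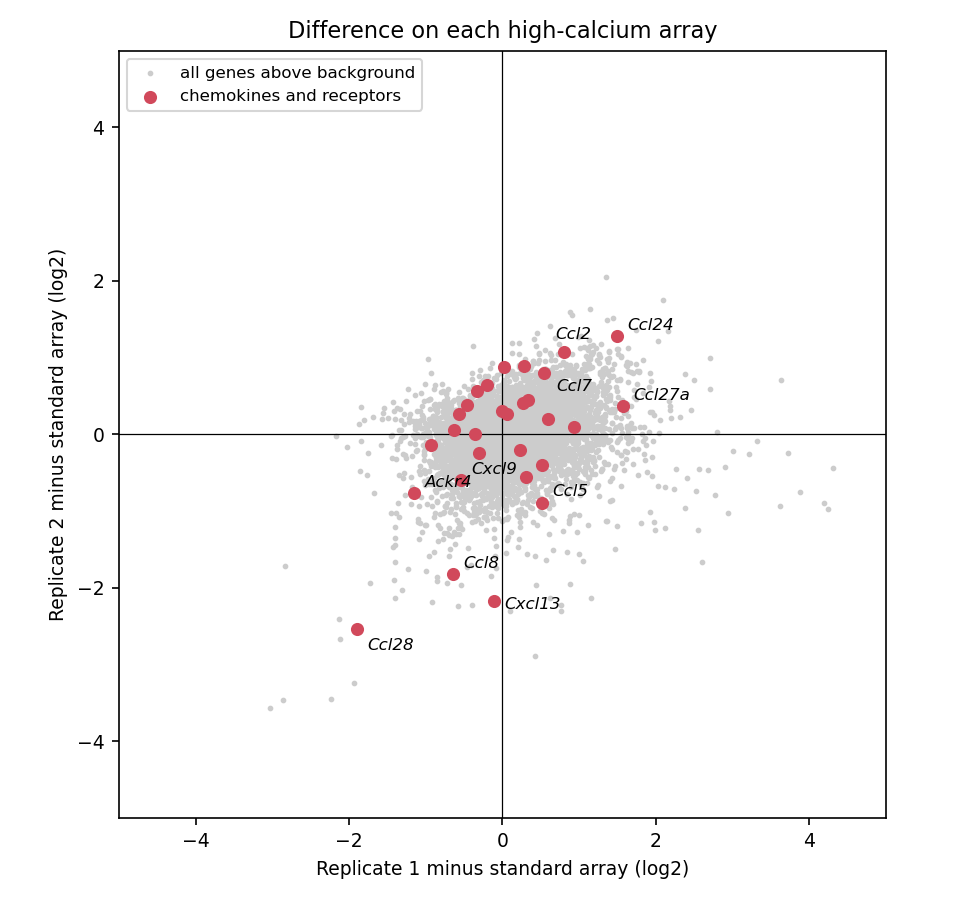
Log2 difference from the standard array on high-calcium replicate 1 (x axis) and replicate 2 (y axis), for the 29 chemokine and receptor genes (red) and all 10610 genes above background on the 3 labelled arrays (grey). Both axes share the standard array, so points spread along the diagonal; Ccl24 and Ccl28 lie far out near that diagonal, while Cxcl13 and Ccl27a lie far out on 1 replicate only.

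The attractants of monocytes did not share a direction. Ccl2, the main attractant of inflammatory monocytes through Ccr2, had log2 signals of 0.63 and 0.90 on replicates 1 and 2, -0.17 on the standard array and 0.22 on the array of open diet. Both high-calcium values lay above the standard value, at 0.76 ± 0.19 (SD, n = 2), a 1.92-fold difference. The log2 difference was 0.94 (SE 0.35, 95% interval from -0.37 to 2.25, limma unadjusted p = 0.0977). Ccl7, a further Ccr2 ligand, had log2 signals of -1.09 and -0.83 on replicates 1 and 2, -1.63 on the standard array and -1.21 on the array of open diet. The high-calcium values were again the highest, with a log2 difference of 0.67 (SE 0.35). With each array centred on its median, Ccl7 was lower than the standard array on replicate 1 (-0.09) and higher on replicate 2 (0.79), while Ccl2 was higher on both (0.18 and 1.06). Markers of mesothelium, the cell layer that covers the pad, had high signals on the same arrays: 9 of 9 were higher on both replicates, with a summed linear signal of 4.04 and 3.20 on replicates 1 and 2, 2.06 on the standard array and 3.55 on the array of open diet. Their part in the values of Ccl2 and Ccl7 was not tested.

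Ccl8 and Ccl12, which belong to the same monocyte chemoattractant group, had their highest signals on the standard array. Ccl8, which in the mouse acts on Ccr8, had 1.79 and 0.61 on replicates 1 and 2, 2.43 on the standard array and 0.95 on the array of open diet. The log2 difference was -1.23 (SE 0.73, 95% interval from -3.96 to 1.49), and the gap between the replicates was 1.18. Ccl12, a mouse ligand of Ccr2, had -3.14 and -4.07 on replicates 1 and 2, -2.39 on the standard array and -3.69 on the array of open diet. The value of replicate 2 lay below background, so its difference of -1.68 from the standard array is no measured size. Ccl2, Ccl7, Ccl11, Ccl12, Ccl8 and Ccl1 follow each other in this order on the mouse genome in the RefSeq gene records of GRCm38.p6. Along this row the difference thus stood above 0 at Ccl2 and Ccl7 on both replicates and below 0 at Ccl12 and Ccl8.

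**Figure D3:**
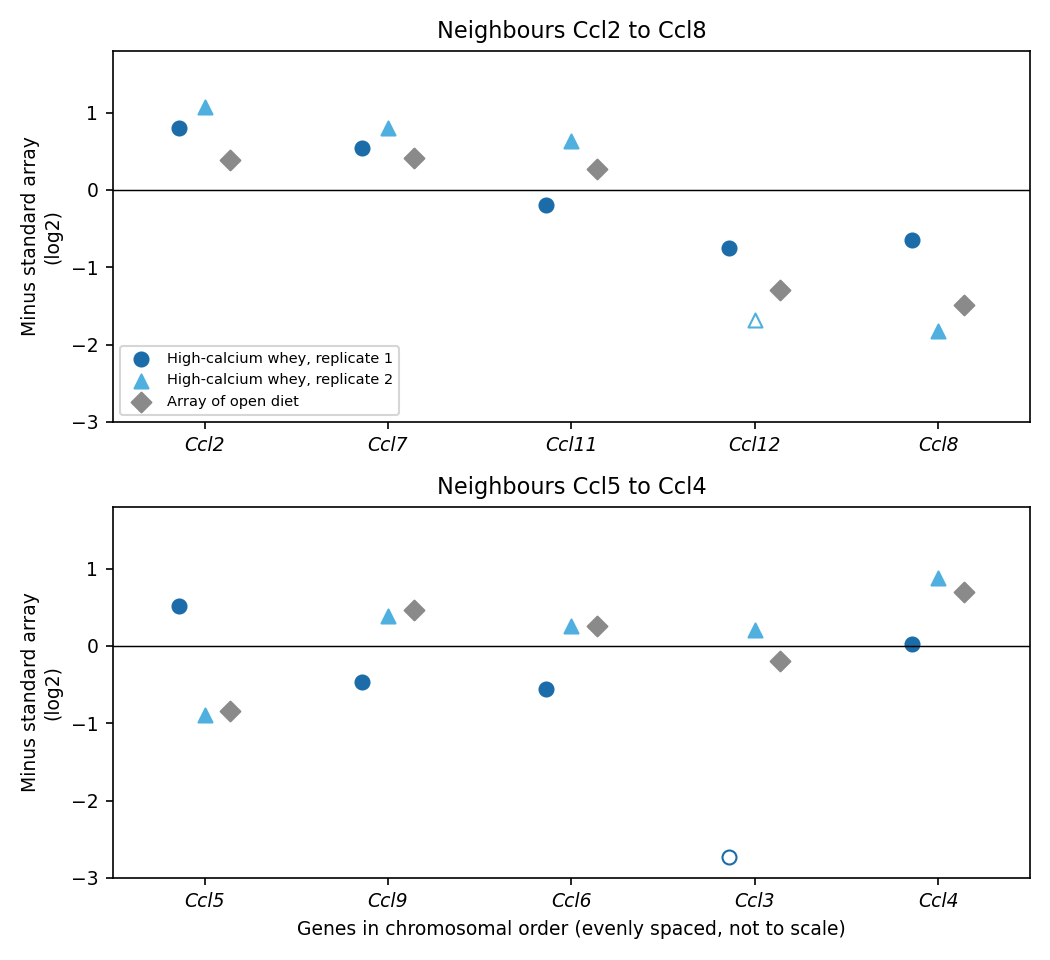
Log2 difference from the standard array (y axis) for chemokine genes that neighbour each other on the mouse genome (x axis, in chromosomal order and evenly spaced): Ccl2 to Ccl8 above, Ccl5 to Ccl4 below. Filled symbols are above background on that array and open symbols below it; Ccl2 and Ccl7 lie above 0 on all 3 arrays, Ccl12 and Ccl8 below 0, and Ccl3 is below background on replicate 1.

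The promoters of the neighbours Ccl12 and Ccl8 are shown because these genes were low on the same arrays. The 250 bases before each start are given 5′ to 3′ from RefSeq on GRCm38.p6, chr11:82101595-82101844 (plus strand) for Ccl12 and chr11:82114935-82115184 (plus strand) for Ccl8. Capitals mark matches, on either strand, to the motifs searched: TATAAA, the interferon-stimulated response element (TTTC, any 2 bases, TTTC), the gamma-activated sequence TTCNNNGAA, the AP-1 site TGANTCA and the kappaB consensus.
Ccl12: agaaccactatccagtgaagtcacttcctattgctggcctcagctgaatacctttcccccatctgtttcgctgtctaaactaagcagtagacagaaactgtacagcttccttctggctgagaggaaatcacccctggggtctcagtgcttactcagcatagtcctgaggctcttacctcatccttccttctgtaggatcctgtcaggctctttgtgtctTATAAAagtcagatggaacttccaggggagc
Ccl8: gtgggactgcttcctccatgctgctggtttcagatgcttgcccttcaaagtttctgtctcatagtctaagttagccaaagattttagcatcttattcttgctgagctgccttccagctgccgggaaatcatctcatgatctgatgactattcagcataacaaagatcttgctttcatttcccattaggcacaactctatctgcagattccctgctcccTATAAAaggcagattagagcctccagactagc
Each holds 1 match, TATAAA, whose first base lies 31 bases before the start of Ccl12 and 32 before that of Ccl8. TATAAA occurs in 13% of 27025 promoter windows of this length. A match is a description of these letters only.

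Of the receptors of this group, Ccr2 was above background on every array and Ccr8 on none. Ccr2, the receptor of Ccl2, Ccl7 and Ccl12 on inflammatory monocytes, had 0.22 and 0.53 on replicates 1 and 2, 0.23 on the standard array and 0.55 on the array of open diet. Replicate 1 was level with the standard array, and the log2 difference was 0.15 (SE 0.36). Its 3 probe sets above background gave mean differences from -0.04 to 0.54.

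The CC ligands Ccl6 and Ccl9 and the receptor Ccr1 were low on replicate 1. Ccl6, a CC chemokine of mouse macrophages that acts on Ccr1, had 2.48 on replicate 1, 3.31 on replicate 2, with 3.04 for the standard array and 3.31 for the array of open diet. Ccl9, its neighbour and relative, had 2.99, 3.83, 3.45 and 3.91 in the same order. For both genes replicate 1 was the lowest and the standard array lay between the replicates. Ccr1, the receptor, had -2.07, -1.17, -1.74 and -1.10 in that order, again lowest on replicate 1. The log2 differences between the diets were -0.15 (SE 0.56) for Ccl6, -0.04 (SE 0.57) for Ccl9 and 0.12 (SE 0.59) for Ccr1.

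Ccl3, a ligand of Ccr1 made by activated macrophages, had -4.95 on replicate 1, below background, against -2.01 on replicate 2, with -2.22 for the standard array and -2.42 for the array of open diet. Ccl4, its close relative, had -3.04 and -2.19 on replicates 1 and 2, -3.07 on the standard array and -2.37 on the array of open diet. Replicate 1 and the standard array were thus the low ones for Ccl4, and the log2 difference was 0.45 (SE 0.58). Cxcl16, a transmembrane chemokine that binds Cxcr6 and oxidized lipoprotein, was at -1.21 on replicate 1 and at -0.52, -0.58 and -0.81 on replicate 2, the standard array and the array of open diet. Macrophage markers were low on the same array: 15 of 15 measured markers were above background on every labelled array, and against the standard array their median was -0.81 on replicate 1 and 0.08 on replicate 2. Their summed linear signal was 46.3 on replicate 1, 75.8 on replicate 2, with 72.5 for the standard array and 77.8 for the array of open diet. The part of these markers in the values of Ccl6, Ccl9, Ccl3, Ccr1 and Cxcl16 was not tested.

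Among the eotaxins, the ligands that attract eosinophils through Ccr3, Ccl24 was higher on both high-calcium arrays. It had -2.07 and -2.29 on replicates 1 and 2, -3.57 on the standard array and -3.42 on the array of open diet. The replicates lay close together, at -2.18 ± 0.16 (SD, n = 2), and above both other arrays. On the standard array Ccl24 lay only 0.44 above background. The difference was 2.62-fold, or 1.39 on the log2 scale (SE 0.34, 95% interval from 0.12 to 2.65, limma unadjusted p = 0.0412, adjusted p = 0.984). Ccl11, the other eotaxin measured, had 0.70 and 1.54 on replicates 1 and 2, 0.90 on the standard array and 1.17 on the array of open diet, so the replicates lay on either side of the standard array. The log2 difference of Ccl11 was 0.22 (SE 0.57). For Ccl24 the log2 difference was smaller with median centring (1.07) and with the array median added (1.03). Ccr3 was below background on all 4 arrays, as were the eosinophil markers Siglecf, Epx and Il5ra of 4 measured.

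Ccl28, an epithelial chemokine that acts on Ccr10, had the largest difference of the 29 genes. It had -3.19 and -3.84 on replicates 1 and 2, -1.29 on the standard array and -3.50 on the array of open diet. The standard array stood alone, above the other 3 arrays. On replicates 1 and 2 Ccl28 lay only 0.19 and 0.16 above background, so the size of its difference is uncertain. The high-calcium mean was -3.51 ± 0.46 (SD, n = 2), a 4.65-fold difference with a log2 value of -2.22 (SE 0.48, 95% interval from -4.01 to -0.42, limma unadjusted p = 0.0318, adjusted p = 0.978). This difference rests on 1 probe set, because the other 2 probe sets of Ccl28 were below background on all 4 arrays. With the array median added, Ccl28 differed by -1.51. The mean of its 3 probe sets gave -1.02, and over the alternatives its adjusted p ran from 0.469 to 0.9999. Ccr10 was below background throughout.

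Genes of the male reproductive ducts and of epithelia were uneven between the same arrays. Of 17 measured genes of the reproductive ducts and germ cells, 4 were above background on the 3 labelled arrays and 8 were below it on all arrays (Lcn5, Lcn8, Lcn9, Lcn12, Adam7, Cst11, Ros1 and Pate4). Their summed linear signal was 3.49 and 0.82 on replicates 1 and 2, 3.79 on the standard array and 0.72 on the array of open diet. Adgrg2, an adhesion G protein-coupled receptor of the male ducts, had -1.62 and -2.84 on replicates 1 and 2, 0.61 on the standard array and -2.26 on the array of open diet, which is the order of arrays seen for Ccl28. It was the 1 gene of the 4 that was lower on both replicates. Prm1, Prm2 and Slc9a3, the others, were highest on replicate 1, with differences of 0.10, 0.42 and 0.54 from the standard array there and of -2.30, -2.90 and -0.25 on replicate 2. The 13 epithelial markers summed to 10.3 and 1.23 on replicates 1 and 2, 4.08 on the standard array and 1.27 on the array of open diet. The part of these genes in the value of Ccl28 was not tested.

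Ccl27a and Ccl25, further ligands of epithelia, were higher on replicate 1 in the main. Ccl27a, which also acts on Ccr10, had -1.44 and -2.64 on replicates 1 and 2, -3.01 on the standard array and -2.83 on the array of open diet. Its log2 difference was 0.97 (SE 0.75), with a gap of 1.20 between the replicates. It was read from a probe set of a kind that can share transcripts, and near-identical gene copies make its value uncertain. Ccl25, the ligand of Ccr9, had -2.33 and -3.17 on replicates 1 and 2, -3.26 on the standard array and -3.43 on the array of open diet. Apart from replicate 1 its values lay close together, and the log2 difference was 0.51 (SE 0.57). Ccr9 was below background on all 4 arrays.

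The interferon-inducible ligands of Cxcr3 were lower on both high-calcium arrays where they were measured. Cxcl9 had 0.28 and 0.23 on replicates 1 and 2, 0.82 on the standard array and 0.83 on the array of open diet. The replicates were at 0.26 ± 0.04 (SD, n = 2) and the other arrays lay together above them. The log2 difference was -0.57 (SE 0.32, 95% interval from -1.75 to 0.62). Its other probe set above background gave -0.28. Cxcl10 had -2.77 and -1.98 on replicates 1 and 2, -1.84 on the standard array and -2.26 on the array of open diet, and replicate 2 was 0.14 below the standard array. The log2 difference was -0.54 (SE 0.55). Cxcl11, the third ligand of the group, was below background on all 4 arrays.

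The promoters of Cxcl9 and Cxcl10 are shown because both genes had lower signals on the high-calcium arrays and share an inducer. They are the 250 bases before each start, 5′ to 3′, from RefSeq on GRCm38.p6, at chr5:92328080-92328329 (minus strand) for Cxcl9 and chr5:92348890-92349139 (minus strand) for Cxcl10, with the same motifs in capitals.
Cxcl9: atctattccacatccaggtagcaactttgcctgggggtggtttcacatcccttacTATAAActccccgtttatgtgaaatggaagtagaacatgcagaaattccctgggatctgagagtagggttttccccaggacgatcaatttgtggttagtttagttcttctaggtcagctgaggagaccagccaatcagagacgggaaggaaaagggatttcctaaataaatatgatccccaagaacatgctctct
Cxcl10: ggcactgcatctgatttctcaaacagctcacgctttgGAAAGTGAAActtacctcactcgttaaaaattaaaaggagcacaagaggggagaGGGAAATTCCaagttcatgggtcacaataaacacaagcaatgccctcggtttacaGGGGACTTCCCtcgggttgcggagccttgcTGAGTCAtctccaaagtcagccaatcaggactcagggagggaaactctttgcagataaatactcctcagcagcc
The window of Cxcl10 holds an interferon-stimulated response element as GAAAGTGAAA, 213 bases before the start, a kappaB match as GGGAAATTCC at 159 bases, overlapping kappaB matches that begin 104 and 103 bases before the start, and an AP-1 match as TGAGTCA at 74 bases. The window of Cxcl9 holds TATAAA at 195 bases and no match to the other motifs. The response element occurs in 3.04% of all 27025 windows, kappaB in 7.01%, AP-1 in 6.87% and the gamma-activated sequence in 7.18%. Promoters were given for 42 of the 55 genes, of which 11 hold a kappaB match: Ackr2, Ccl1, Ccl20, Ccl9, Ccr1, Ccr3, Ccrl2, Cxcl1, Cxcl10, Cxcl2 and Cxcl3.

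Cxcr3, the receptor of these ligands on activated T cells, was high on the same array as Ccl5 and Cxcr6. It had -1.80 and -2.73 on replicates 1 and 2, -2.33 on the standard array and -3.08 on the array of open diet. Ccl5, a T-cell and macrophage chemokine, had -0.62, -2.02, -1.13 and -1.97 in the same order. Cxcr6, the receptor of Cxcl16 on T cells, had -2.31, -3.17, -2.61 and -2.84. On the deposited scale replicate 1 was the highest array for each of the 3 genes and the standard array the second highest. The replicates thus lay on either side of the standard array. With each array centred on its median, both replicates lay below the standard array instead. The differences on replicates 1 and 2 were then -0.10 and -0.41 for Cxcr3, -0.11 and -0.90 for Ccl5, and -0.32 and -0.56 for Cxcr6. The log2 differences were 0.06 (SE 0.61) for Cxcr3, -0.19 (SE 0.85) for Ccl5 and -0.12 (SE 0.58) for Cxcr6. Of 9 measured T-cell markers 8, 6, 8 and 4 were above background on replicate 1, replicate 2, the standard array and the array of open diet, and their summed linear signal was 1.75, 0.83, 1.06 and 0.57. The part of T-cell markers in these values was not tested.

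Neutrophil attractants, which act on Cxcr2, were mostly dim. Cxcl1 had -1.83 and -1.21 on replicates 1 and 2, -2.11 on the standard array and -1.44 on the array of open diet, with a log2 difference of 0.59 (SE 0.47). Its 3 probe sets gave mean differences from -0.30 to 0.59, so no direction holds over them. Cxcl2 was below background on replicate 1 (-4.20) and above it on replicate 2 (-2.73), the standard array (-2.37) and the array of open diet (-2.48). Cxcl3, Cxcl5, Cxcl15 and Cxcr2 were below background on all 4 arrays. Among 6 measured neutrophil markers 3 were above background on each array, and S100a8, a neutrophil calcium-binding protein, had 1.39, 1.31, 2.47 and 1.78 on replicate 1, replicate 2, the standard array and the array of open diet. Its partner S100a9, the other marker above background on the 3 labelled arrays, differed between the diets by 0.07 (SE 0.32), against -1.12 (SE 0.32) for S100a8.

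Cxcl12, a homeostatic chemokine of stromal cells, had 1.59 and 1.65 on replicates 1 and 2, 1.90 on the standard array and 1.63 on the array of open diet. The standard array was the highest and the others lay close together, and the log2 difference was -0.27 (SE 0.32, 95% interval from -1.46 to 0.91). The other Cxcl12 probe set above background gave -0.49. The mean of all 3 Cxcl12 probe sets, of which 1 was below background, was 0.23. Cxcr4, its signalling receptor, had -1.77 and -1.56 on replicates 1 and 2, -1.83 on the standard array and -1.60 on the array of open diet, a log2 difference of 0.17 (SE 0.34). Ackr3, the atypical receptor that takes up Cxcl12, had 1.20 and 1.33 on replicates 1 and 2, 0.92 on the standard array and 1.08 on the array of open diet, a log2 difference of 0.34 (SE 0.33). On the deposited scale the standard array was the lowest of the 4 for Cxcr4 and Ackr3, and the highest for Cxcl12. With each array centred on its median, replicate 1 lay below the standard array for Cxcr4 (-0.56) and Ackr3 (-0.35). Replicate 2 stayed above it (0.26 and 0.40), and Cxcl12 stayed lower on both replicates (-0.93 and -0.25). Cxcl14, a chemokine of epithelium and fat, had -1.62 and -2.01 on replicates 1 and 2, -2.21 on the standard array and -2.32 on the array of open diet. Its log2 difference was 0.40 (SE 0.39), but -0.35 by its other probe set.

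Genes that organize lymphoid tissue stood out on replicate 1 or replicate 2 alone. Cxcl13, which draws B cells into follicles, had -1.36 on replicate 1, -3.42 on replicate 2, with -1.25 for the standard array and -1.57 for the array of open diet. Replicate 2 stood alone, with a difference of -2.17 from the standard array, and of -2.10 by the second probe set of Cxcl13. The log2 difference between the diets was -1.14 (SE 1.20), and without replicate 2 it was -0.11. Cxcr5, the receptor of Cxcl13 on B cells, was above background on replicate 1 only (-3.06), with -6.64 on replicate 2, with -6.08 for the standard array and -4.59 for the array of open diet. Ccr7, the receptor that leads lymphocytes and dendritic cells to lymph nodes, was also above background on replicate 1 only (-2.99), with -4.98, -6.04 and -5.08 on the other arrays in that order.

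Ccr6, the receptor of Ccl20 on B cells and some T cells, had -1.84 on replicate 1 and -3.87 on replicate 2, the latter just above background, and was below background on the standard array (-4.33) and the array of open diet (-4.58). The mean log2 value of the high-calcium arrays lay 2.21-fold above the background of the standard array, a bound that holds on the deposited scale only. Over the median of its own array Ccr6 was 1.54 on replicate 1 and 0.12 on replicate 2, so replicate 1 carried this value. B-cell markers were high on the same array: 9, 5, 5 and 2 of 10 measured markers were above background on replicate 1, replicate 2, the standard array and the array of open diet. Their summed linear signal was 3.47, 0.78, 0.94 and 0.61. The part of B-cell markers in the values of Cxcr5, Ccr6 and Ccr7 was not tested.

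**Figure D4:**
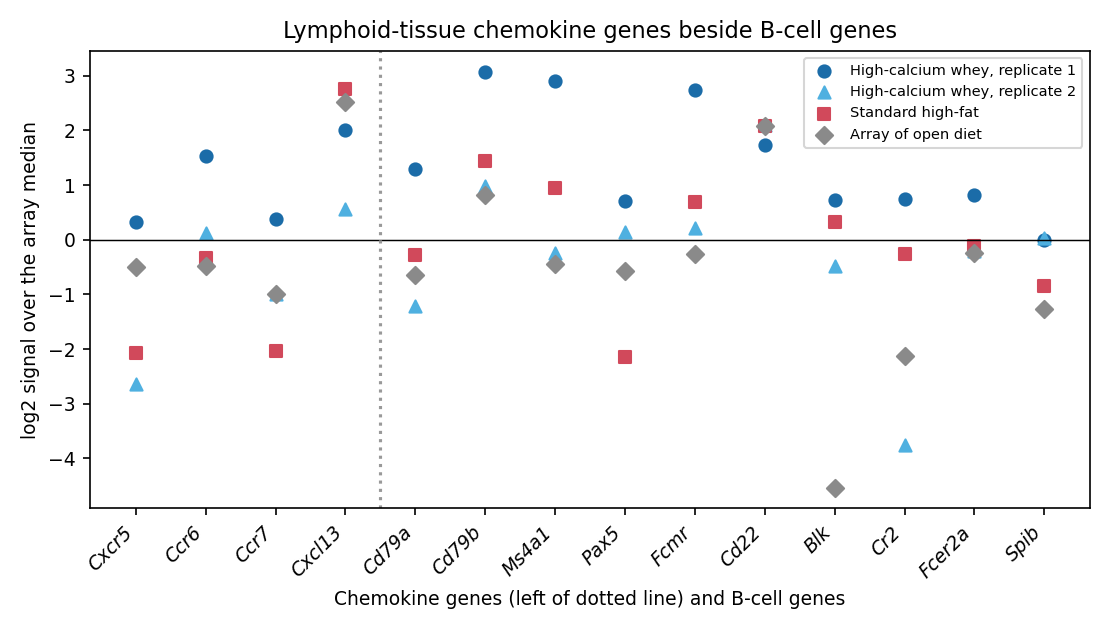
Log2 signal over the median of each array (y axis; 0 is background) for Cxcr5, Ccr6, Ccr7 and Cxcl13 (left of the dotted line) and 10 B-cell marker genes (right), with 1 symbol for each array. Replicate 1 is the highest array for Cxcr5, Ccr6 and Ccr7, whereas for Cxcl13 replicate 2 is the lowest array at 0.57, and the other 3 lie between 2.01 and 2.75.

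Atypical receptors had differences of both signs. Ackr4, which takes up the lymphoid chemokines and Ccl25, had -2.72 and -2.35 on replicates 1 and 2, -1.58 on the standard array and -2.01 on the array of open diet. The standard array was the highest, and the log2 difference was -0.96 (SE 0.38, 95% interval from -2.38 to 0.46, limma unadjusted p = 0.109), a 1.94-fold difference. A second probe set of Ackr4 gave -0.99. Ackr2, the scavenger of inflammatory CC chemokines on lymphatic endothelium, had -1.88 and -1.77 on replicates 1 and 2, -2.22 on the standard array and -2.52 on the array of open diet, a log2 difference of 0.39 (SE 0.32). Ackr1, the chemokine receptor of venules and red cells, had -1.15, -1.58, -1.37 and -2.23 in the same order. On the deposited scale its replicates thus lay on either side of the standard array. Ccrl2, which binds chemerin and presents it, had -2.12, -1.76, -1.76 and -2.11, with replicate 2 level with the standard array. Endothelial markers were lower on both high-calcium arrays in 10 of 12, with median differences of -0.29 on replicate 1 and -0.51 on replicate 2. Lymphatic markers, 3 of 5 above background, had median differences of 0.03 and -0.05, but they did not share a direction. On replicates 1 and 2 Flt4 differed by -0.31 and -0.97, Pdpn by 0.03 and 0.31, and Lyve1 by 0.28 and -0.05. Reln was above background on replicate 1 (-2.62) and the standard array (-1.43) only, and Prox1 was below background on all arrays. The part of endothelial and lymphatic markers in the values of the atypical receptors was not tested.

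**Figure D5:**
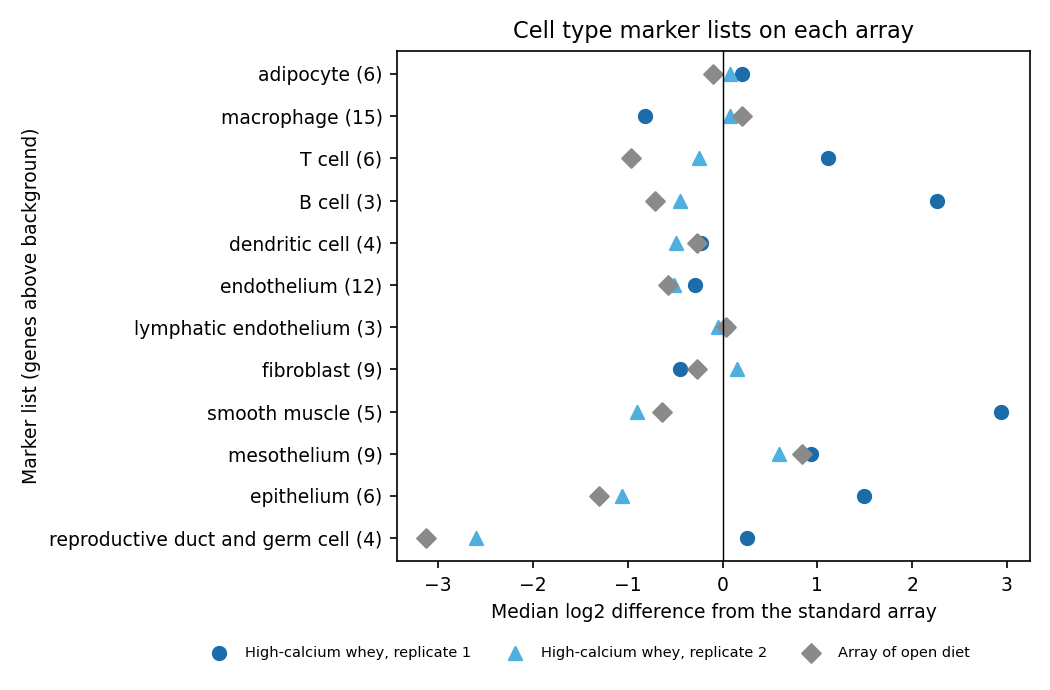
Median log2 difference from the standard array (x axis) of each cell type marker list (y axis, with the number of genes above background on the 3 labelled arrays), on replicate 1, replicate 2 and the array of open diet. Replicate 1 lies farthest to the right for smooth muscle (2.94) and B-cell (2.26) genes, also to the right for epithelial and T-cell (1.11) genes and to the left for macrophage genes (-0.81), and mesothelial genes lie above 0 on all 3 arrays.

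The remaining ligands and receptors were below background on some or all of the arrays. Cx3cl1, a membrane-bound chemokine of endothelium, was above background on replicate 2 (-2.56) and the standard array (-3.24) and below it on replicate 1 (-5.42) and the array of open diet (-5.13). Its receptor Cx3cr1, of monocytes and resident macrophages, had -3.56, below background, and -3.28 on replicates 1 and 2, -3.31 on the standard array and -3.72 on the array of open diet. Ccl17, a ligand of Ccr4, had -3.54 on replicate 2 and -3.31 on the standard array and was below background on replicate 1 and the array of open diet. Ccl22, the other Ccr4 ligand, was above background on replicate 2 only (-3.30). Ccl1 was above it on replicate 1 only (-2.77). Xcr1, the receptor of cross-presenting dendritic cells, was above background on the standard array only (-3.88), too close to it for a fold. Cxcl17, a mucosal chemokine, was above background on replicate 2 (-3.61) and the array of open diet (-3.09), and Xcl1, the ligand of Xcr1, on the array of open diet only (-3.60). The 12 genes below background on all 4 arrays were Ccl20, Ccr10, Ccr1l1, Ccr3, Ccr4, Ccr8, Ccr9, Cxcl11, Cxcl15, Cxcl3, Cxcl5 and Cxcr2. Their differences have no measured size: 7 of them were higher on both high-calcium arrays, against 47.9% of all genes below background, and dim genes as a whole had a median difference of 1.10 on replicate 1 and 0.16 on replicate 2.

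On the array of open diet, 7 of the 29 genes were closer to both high-calcium arrays than to the standard array, against 23% of all genes above background on 4 arrays: Ccl28, Ccl4, Ccl7, Ccl8, Cxcl1, Cxcl12 and Cxcr4. For 10 genes it was closer to the standard array than to either high-calcium array, against 40.3% of all genes, namely Ackr2, Ccl11, Ccl2, Ccl24, Ccl25, Ccl27a, Cxcl14, Cxcl16, Cxcl9 and Cxcr6. These shares lie near the background, and the counts assign that array to no diet.

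Genes around the chemokine system showed no call either, with 0 genes past limma's adjusted threshold in each of 4 lists. Of 27 measured genes of chemokine receptor signalling above background, 7 were higher and 9 lower on both high-calcium arrays, with a median log2 difference of -0.06 against 0.03 for all genes above background. Among those with the largest difference were Pik3cd, a leukocyte phosphoinositide 3-kinase (1.10, SE 0.76), and Ptk2b, a focal adhesion kinase of leukocytes (0.57, SE 0.32). Of 17 genes linked to the induction of chemokines or its restraint 6 were higher and 2 lower, with a median of 0.13. They were led by Irf7, an interferon regulatory factor (0.85, SE 0.62), Ltbr, the lymphotoxin receptor (0.57, SE 0.32), and Relb, an NF-kappaB subunit downstream of it (0.54, SE 0.32). Il1a, Il6, Ifng, Il4, Il13 and Lta were below background on all 4 arrays. Of 7 proteases that process chemokines 2 were higher and 2 lower, with a median of -0.23. Mmp9, a gelatinase, differed by 1.13 (SE 0.56), Dpp4, which trims the ends of many chemokines, by 0.51 (SE 0.51) and Mmp14 by -0.35 (SE 0.44). Of 7 chemokines and receptors with other symbols 1 was higher and 4 lower, with a median of -0.13. Ppbp, a platelet chemokine, differed by -0.69 (SE 0.35), Gpr1, a chemerin receptor, by -0.39 (SE 0.32) and Cmklr1, the main chemerin receptor, by 0.33 (SE 0.34).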

How the data were processed

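Total RNA of epididymal fat pads was measured on 4 arrays. The authors deposited an intensity for each of 45101 probe sets on every array. Per the submitters' processing notes RMA was a tool used (version not given), yet the deposited intensity values are linear, not log2, and the lowest value of each array is its median divided by 100. The sources used here do not state the authors' scaling, which leaves the scale open. Values were log2 transformed with no added constant. Names came from the platform annotation (34958 with 1 symbol, 932 with several, 9211 with none; 34754 matched a current gene record), and 4 probe sets that list a chemokine among several symbols were left out. Each gene was read from its brightest probe set (mean log2 signal over the 4 arrays), and 20 of the 55 genes had more than 1. Background was the median of each array.

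Groups were fitted with limma 3.58.1 in R 4.3.3 (1 residual degree of freedom, 2.38 after moderation), two-sided, adjusted over all genes, with intervals at 95%; the script was tested on simulated data. Figures used matplotlib 3.10.9 under Python 3.11.15. Named genes were the 55 chemokine genes by rule, with signals for those measured, and the 3 largest same-sign differences of each pathway list, 1 of which is not reported here. The members and the gene lists were chosen with earlier results of these data known. Alternatives were other choices of probe set, quantile normalization, median centring, a filter on dim genes, an added array median, a trend with robust estimation and leaving out each high-calcium array.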

Additional observations from a re-analysis of the deposited data

Results flagged for a closer look

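On the array of open diet, which entered no comparison, 2 chemokines were above background while they were below it on the standard array. Cxcl17 had a log2 signal of -3.09 on the array of open diet and of -5.12 on the standard array. Xcl1 had -3.60 and -4.05 on these arrays.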

How the results depend on the processing

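The number of arrays limits every value, and the spread rests on 2 arrays. No chemokine gene was called under any alternative, and of the 29 measured genes 19 kept their direction under every setting that used all 3 labelled arrays and measured them. The count of called genes, 0 in the main, was 96 with median centring and 6 with a trend and robust estimation. The genes higher on both high-calcium arrays, 11 in the main, numbered 7 without probe sets that can share transcripts and 4 with median centring, which also gave 12 lower genes and a median difference of -0.25. Leaving out a high-calcium array left 15 to 18 genes higher and 11 to 14 lower on the remaining array, with a median of 0.025 to 0.20; no test was possible there. Median centring reversed Ackr1 (-0.31), Ccl11 (-0.10), Ccr1 (-0.195), Ccr2 (-0.165), Cxcr3 (-0.25) and Cxcr4 (-0.15), by its own shift of the arrays. Cxcl12 was 0.23 with the mean of all probe sets, which took in 1 probe set below background on all 4 arrays. Without probe sets that can share transcripts, Cxcl1 and Cxcl14 were read from another probe set, at -0.0074 and -0.35. The causes of the other reversals were not tested: Ackr1 was -0.022 with quantile normalization and Cxcr6 0.013 with the array median added. On the deposited scale the replicates gave opposite signs for 11 genes. Of these, Ackr1, Ccl5, Ccrl2, Cxcr3 and Cxcr6 were lower on both replicates with median centring. Ccr2 was higher on both with the array median added. The difference of Ackr1 ran from -0.21 to 0.23, of Ccl6 from -0.56 to 0.26, of Ccl9 from -0.46 to 0.39, of Ccrl2 from -0.36 to 0.0032, of Cxcl16 from -0.63 to 0.056, of Cxcr3 from -0.40 to 0.52, of Ccl11 from -0.20 to 0.64, of Ccl5 from -0.89 to 0.51, of Ccr1 from -0.33 to 0.57, of Ccr2 from -0.0045 to 0.31 and of Cxcr6 from -0.55 to 0.31, as each array was left out. No paired analysis was possible because the standard diet has 1 labelled array.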
